A study of Mus musculus with 5 samples.

Results

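Rgs16, Angptl4, Lbh, Fjx1, Sox13 and Tcf15 are 6 mouse genes outside the usual lists of ERK targets whose transcripts were among the lowest after a short inhibition of the kinase MEK in epiblast stem cells. They were chosen by their difference between the PD array and the untreated array, and all 7 probes that carry one of these symbols in the platform annotation were used, out of 16593 genes with a named probe. The difference that chose them is therefore described and not tested. The cells came from a single line of hybrid background, E3, and were grown on inactivated CF1 embryonic fibroblasts in KSR medium with FGF2 at 5 ng/ml. At semiconfluence this was exchanged for 3 h. One culture, untreated, received the medium without supplements, and the others received the MEK inhibitor PD0325901 at 1 uM (PD), the GSK3 inhibitor CHIR99021 at 3 uM (CH), the cytokine LIF at 1000 U/ml, or all 3 agents at these doses (PCL). FGF2 is named in none of the 5 media used during those 3 h. Each condition was measured on 1 bead array, so no difference between conditions has a replicate check, and no p-value is given. The ± values are standard errors over the beads of a probe carried to the log2 scale, and they leave out culture, extraction and hybridisation.

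FGF receptors act through RAS, RAF and MEK on the kinases ERK1 and ERK2, which phosphorylate transcription factors such as the ETS factors and thereby switch on immediate early genes, phosphatases and Sprouty proteins. In the epiblast this pathway favours the primed state and the exit from naive pluripotency. The 6 genes act at other places in the cell. Angptl4 is a secreted inhibitor of lipoprotein lipase, Fjx1 is the mouse relative of four-jointed, a Golgi kinase that in Drosophila acts on the cadherins Fat and Dachsous, and Rgs16 ends signalling by G-protein alpha subunits. Lbh is a transcriptional cofactor named for limb bud and heart, Sox13 is an HMG-box factor of the SoxD group, and Tcf15 (paraxis) is a basic helix-loop-helix factor of the forming somites that is also present in pluripotent cells.

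The cultures carried the markers of epiblast stem cells and of their feeders on all 5 arrays. Per array 10130 to 10981 of 25697 probes were detected (detection p-value under 0.01), and scanner signals were brightest for the untreated culture (75th percentile 178, other arrays 137 to 153). All 10 epiblast markers were detected on every array, with Dnmt3b at log2 13.58 to 13.86 and Pou5f1 at 12.06 to 12.39. Of 14 feeder fibroblast markers 9 were detected with PD and 10 on each other array, while Col1a2, Col3a1, Pdgfrb and Postn were not detected on any. The summed normalized intensity of the feeder markers was 5733 with PD and 6158 with PCL, against 5544 to 6067 on the arrays without PD. The brightest marker, Acta2 (log2 11.51 to 11.75), weighs most in this sum. The median log2 level of the 14 markers was 6.83 with PD and 6.95 with PCL, against 7.06 to 7.25 without PD. Of 8 endothelial and mesoderm markers 2, Pecam1 and Tek, were detected. In bulk RNA fewer cells of a type and less RNA per cell cannot be told apart, and which cells the 6 transcripts came from was not tested.

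The RefSeq promoter table of build GRCm38.p6 holds windows for 3 of the 6 genes. The proximal promoters of Rgs16 and Lbh are shown because their windows lie outside the annotated genes. The Sox13 window is not used, as 247 of its 250 bases lie inside the annotated gene. Each window is the 250 bases before the annotated start, read 5′ to 3′ on the gene's strand: chr1:153740103-153740352 (plus strand) for Rgs16 and chr17:72918055-72918304 (plus strand) for Lbh. Capitals mark matches to the motifs searched.
Rgs16: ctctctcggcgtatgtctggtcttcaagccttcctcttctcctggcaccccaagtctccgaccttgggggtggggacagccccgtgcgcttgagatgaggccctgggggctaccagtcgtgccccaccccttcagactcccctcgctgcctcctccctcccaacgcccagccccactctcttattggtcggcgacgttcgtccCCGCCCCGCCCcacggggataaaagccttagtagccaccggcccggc
Lbh: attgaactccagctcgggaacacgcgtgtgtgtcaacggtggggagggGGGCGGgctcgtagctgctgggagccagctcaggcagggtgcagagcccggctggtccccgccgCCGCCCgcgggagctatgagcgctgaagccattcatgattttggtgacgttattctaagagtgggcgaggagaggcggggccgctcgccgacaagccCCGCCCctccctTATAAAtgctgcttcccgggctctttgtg

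Both strands were searched for an extended ETS core (CCGGAA), AP-1 (TGANTCA), EGR (GCGNGGGCG), STAT (TTCNNNGAA), TCF/LEF (CTTTGA) and E-box (CANNTG) motif. The CArG box was searched for as well. None of these motifs had a match in either window. The shorter ETS core GGAA, which was not among the motifs searched, stands in both windows. Among the 32851 windows of this length in the table CCGGAA is found in 12.0%, AP-1 in 6.75%, EGR in 4.70% and STAT in 7.02%. TCF/LEF is found in 13.8%, the E-box in 66.2% and the CArG box in 1.47%. TATAAA and the GC box GGGCGG were added after the sequences had been read. TATAAA stands in Lbh at -29 to -24 and is found in 12.4% of windows, and GC boxes, found in 32.7%, stand in Lbh at 3 places and in Rgs16 at 2 that overlap by 1 base. The windows hold 64.8% (Lbh) and 66.4% (Rgs16) G and C, against a median of 52.4% in the table. These matches describe letters in a short window and show neither binding nor its absence.

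Among the proteins that act outside the cell or in the secretory pathway, Angptl4 gave a scanner signal of 1091 untreated, 266 with PD, 823 with CH, 755 with LIF and 356 with PCL. Both arrays with PD lay below all 3 without it. On the normalized log2 scale, which adjusts for the brighter untreated array, the levels were 9.57, 7.94, 9.73, 9.41 and 8.30 in the same order, so untreated, CH and LIF came within 0.32 of each other. Neither neighbouring pair among these 3 differed beyond the bead-level interval, while CH and LIF themselves did, as given below. Fjx1 gave signals of 346, 123, 195, 210.4 and 156, and log2 levels of 7.71, 6.12, 7.20, 7.16 and 6.66. Its highest value was on the untreated array, CH and LIF shared the middle, and PCL and PD were lowest in that order.

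Rgs16, the regulator of G-protein signalling, gave signals of 457 untreated, 128 with PD, 354 with CH, 289.5 with LIF and 162 with PCL. Its log2 levels were 8.19, 6.25, 8.36, 7.80 and 6.74. CH and untreated did not differ beyond the bead-level interval, LIF stood 0.39 ± 0.12 below untreated, and a gap of 1.06 ± 0.14 separated LIF from PCL.

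Among the nuclear proteins, Lbh has 2 probes, and the brighter gave signals of 1194, 306, 711, 829.6 and 275 on the untreated, PD, CH, LIF and PCL arrays. Its log2 levels of 9.71, 8.20, 9.50, 9.56 and 7.84 fall into 3 high arrays and 2 low ones, with 1.30 ± 0.08 between CH and PD. The second Lbh probe gave signals of 403, 176, 243, 334 and 141. It too had PD and PCL lowest, but with LIF highest and PD only 0.61 ± 0.18 below CH. On both probes Lbh was lowest with PCL, unlike the other 5 genes, which were lowest with PD.

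Sox13 gave signals of 246 untreated, 103 with PD, 146 with CH, 161 with LIF and 119 with PCL, and log2 levels of 7.10, 5.52, 6.54, 6.56 and 5.93. The order of its arrays was untreated, LIF and CH together, PCL and PD. Tcf15 gave signals of 233, 91.2, 107, 156 and 102, and log2 levels of 6.99, 4.96, 5.61, 6.48 and 5.41. It was the dimmest of the 6 and the only one not detected on an array, with a detection p-value of 0.0125 on PD. Its order was untreated, LIF, CH, PCL and PD, and CH and PCL did not differ beyond the bead-level interval (0.21 ± 0.20). On the log2 scale the range over the 5 arrays was 1.58 for Fjx1 and Sox13, 1.79 for Angptl4, 1.87 for Lbh, 2.03 for Tcf15 and 2.12 for Rgs16.

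**Figure D1:**
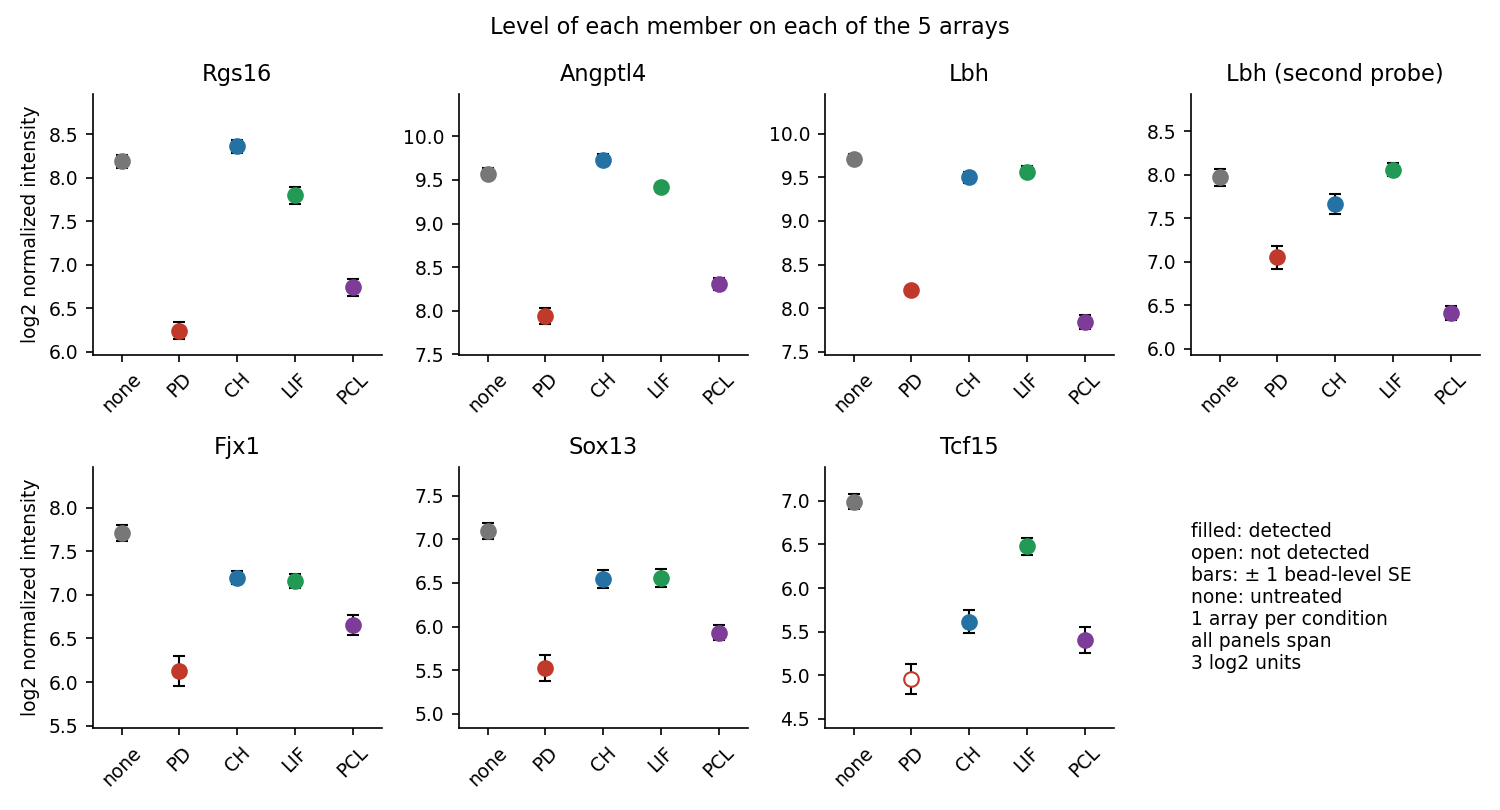
Log2 normalized intensity (vertical axis) of each of the 7 probes on the untreated, PD, CH, LIF and PCL arrays (horizontal axis, untreated marked none), with bars of 1 bead-level standard error on either side and 1 array per condition. PD and PCL are the 2 lowest arrays in every panel, Lbh is lowest with PCL on both probes, and the open circle marks Tcf15 as not detected with PD.

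Against the untreated array PD gave the values by which the genes were picked. Tcf15 differed by -2.03 ± 0.19, Rgs16 by -1.94 ± 0.12, Angptl4 by -1.63 ± 0.11, Fjx1 by -1.58 ± 0.19, Sox13 by -1.58 ± 0.18 and Lbh by -1.51 ± 0.08 on the log2 scale. They held ranks 6, 7 and 9 to 12 from the lowest among 7575 genes detected on either array. All 6 were at least 2-fold lower, as were 50 of the 7575 genes (0.660%), a count from which nothing is read because this difference chose them. The second Lbh probe differed by -0.92 ± 0.16 (1.89-fold), and with it in place of the first 5 of the 6 were at least 2-fold lower. As Tcf15 was not detected with PD, it was at least 4.02-fold lower against the lowest level detected there. That bound holds only for the background correction and offset used here and leaves out bead-level error. The Tcf15 difference was -0.90 without background correction and -1.31 with an offset of 50. Every other Tcf15 value that uses the PD array rests on that undetected signal. The rule named no cut-off, and the 6 are not all the genes outside the ERK list at this depth of the ranking. Slc46a3 (-2.79), Grm6 (-2.29) and Lor (-2.05) lay lower than all 6, the activin-binding protein Fst (-1.67) lay among them, and just above them lay the protease Plau (-1.50) and the chemokine Ccl7 (-1.49). At 2-fold 11 genes were higher beside the 50 lower. When arrays were instead scaled to 1 value of their 75th percentile, 43 were higher and 49 lower.

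The array with all 3 agents placed the 6 genes low as well, in comparisons that share the untreated array with the choice. PCL differed from untreated by -1.87 ± 0.10 for Lbh, -1.59 ± 0.17 for Tcf15, -1.45 ± 0.13 for Rgs16, -1.27 ± 0.09 for Angptl4, -1.17 ± 0.12 for Sox13 and -1.05 ± 0.14 for Fjx1. All 6 were at least 2-fold lower, as were 0.770% of the 7792 genes detected (60 lower and 29 higher, or 58 and 46 with percentile scaling).

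**Figure D2:**
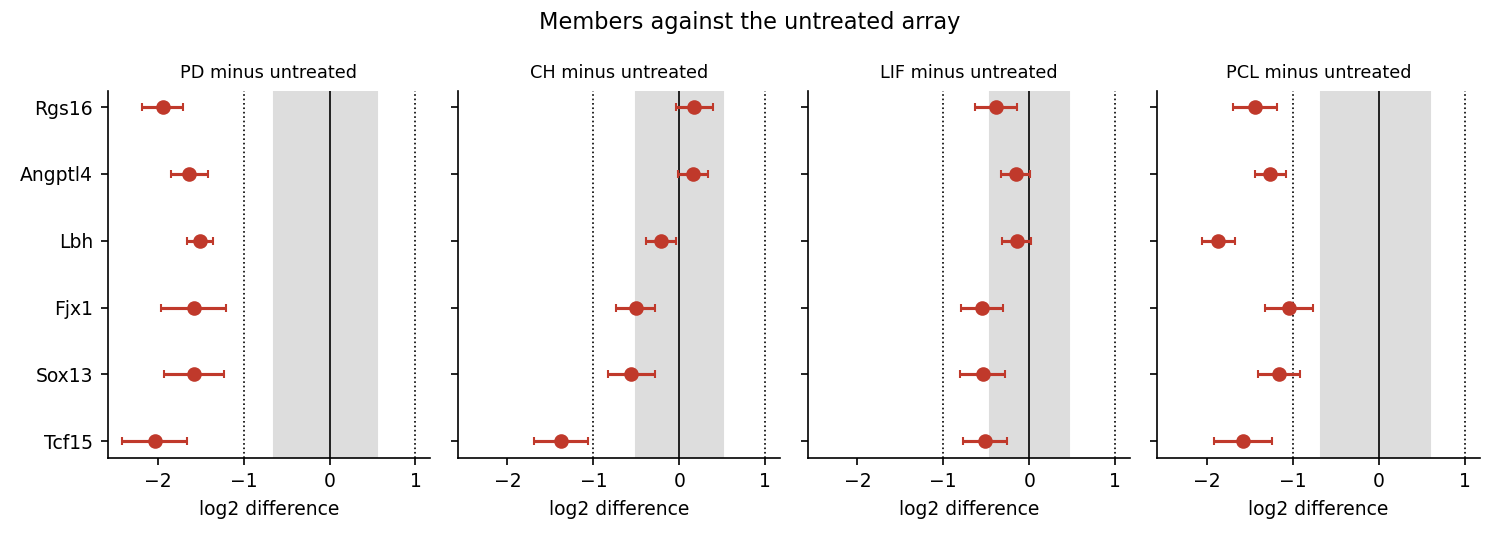
Log2 difference (horizontal axis) of the 6 genes (rows) for each treated array against the untreated array, with 95% bead-level intervals, dotted lines at 2-fold and a grey band over the central 95% of all detected genes. PD and PCL place all 6 beyond 2-fold lower, CH does so for Tcf15 with -1.38, and LIF for none.

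The rule of the choice used neither the PCL array nor the CH and LIF arrays. PCL against the mean of CH and LIF thus compares an array with PD to arrays without it that the rule did not use. As the 6 genes were chosen with earlier results of these data known, this is no independent check of them. Beside PD itself, PCL differs from CH and from LIF in the other agent. All 6 genes were lower with PCL, where 48.0% of 8251 detected genes were, and all 6 lay below both CH and LIF, as did 33.9% of the genes. Lbh differed by -1.70 ± 0.09 and held rank 2 from the lowest, Rgs16 by -1.34 ± 0.12 at rank 8, and Angptl4 by -1.27 ± 0.08 at rank 11. These 3 were at least 2-fold lower, as were 23 genes or 0.279% of those detected. The second Lbh probe differed by -1.45 ± 0.11. Over all 5 arrays the 6 genes had each array without PD above both with it, as did 11.4% of 8353 genes, but that count includes the arrays of the choice.

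Tcf15 (-0.64 ± 0.17), Sox13 (-0.62 ± 0.11) and Fjx1 (-0.52 ± 0.12) were less than 2-fold lower, at ranks 91, 98 and 189. PD itself against the mean of CH and LIF uses the array on which the genes were picked to be low. There Sox13 differed by -1.03, Fjx1 by -1.05, Tcf15 (undetected with PD) by -1.085, Lbh by -1.33, Angptl4 by -1.63 and Rgs16 by -1.84. For PCL against that mean the median over the 6 genes was -0.95. Over all genes detected it was 0.0097, with their central 95% between -0.51 and 0.49. For Tcf15 the reference decided the size. With CH alone as reference it differed by -0.21 ± 0.20, within the bead-level interval, and with LIF alone by -1.07, which made 4 of the 6 at least 2-fold lower.

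**Figure D3:**
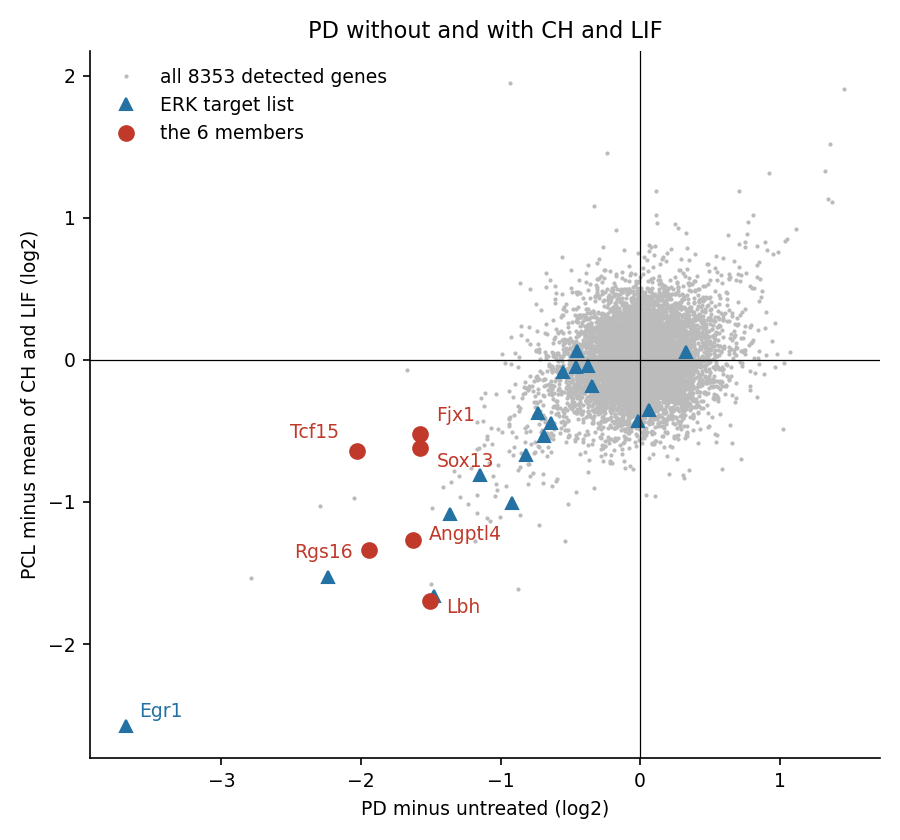
Each point is 1 gene, with its log2 difference between PD and untreated on the horizontal axis and between PCL and the mean of CH and LIF on the vertical axis. The 6 genes (red) are at or below -1.51 on the axis that chose them, where Lbh, Rgs16 and Angptl4 also lie below -1 on the vertical axis and Tcf15, Sox13 and Fjx1 between -0.64 and -0.52. Blue triangles are the ERK target list, led by Egr1.

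With the GSK3 inhibitor as the single agent the 6 genes did not move alike. Of those lower, Sox13 and Fjx1 were about as low with LIF, as given below. With CH against untreated, Tcf15 differed by -1.38 ± 0.16 and held rank 3 from the lowest of 7882 genes, of which 0.0761% were at least 2-fold lower (6 lower and 9 higher, or 6 and 31 with percentile scaling). Sox13 (-0.56 ± 0.14) and Fjx1 (-0.51 ± 0.12) were lower by less than 2-fold, and Lbh differed by -0.21 ± 0.09. The bead-level intervals of Rgs16 (0.17 ± 0.11) and Angptl4 (0.16 ± 0.09) included 0. Tcf15 was the only one of the 6 past 2-fold, and without background correction its difference was -0.69.

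With LIF against untreated none of the 6 reached 2-fold, which 0.0638% of 7838 genes did in the lower direction (5 lower and 2 higher, or 6 and 6 with percentile scaling). Fjx1 (-0.55 ± 0.12), Sox13 (-0.54 ± 0.14), Tcf15 (-0.51 ± 0.13) and Rgs16 (-0.39 ± 0.12) were lower. The intervals of Angptl4 (-0.16 ± 0.08) and Lbh (-0.15 ± 0.09) included 0. Both comparisons share the untreated array with the choice of genes. On that array Fjx1, Sox13 and Tcf15 stood 0.51, 0.54 and 0.51 above the higher of CH and LIF, and 19.3% of the 8353 genes detected on any array were highest there. With the median of the 3 arrays without PD as reference, the PD difference was -1.07 for Fjx1, -1.03 for Sox13 and -1.52 for Tcf15, and it was -1.94 for Rgs16, -1.63 for Angptl4 and -1.36 for Lbh. The part of the brighter untreated array in these values was not tested.

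CH set directly against LIF uses only arrays that the rule of the choice did not use. Tcf15 was lower with CH, at -0.87 ± 0.16, at rank 15 from the lowest of 8064 genes. Rgs16 (0.56 ± 0.12) and Angptl4 (0.32 ± 0.08) were higher with CH than with LIF. For Fjx1 the difference was 0.04 (95% bead-level interval -0.18 to 0.26), for Sox13 -0.02 (-0.30 to 0.27) and for Lbh -0.06 (-0.24 to 0.11), and the second Lbh probe gave -0.39 ± 0.14. None of the 6 was 2-fold different, as were 0.211% of the genes (7 lower and 10 higher, or 4 and 13 with percentile scaling). In the authors' deposited values the Tcf15 difference was -1.17.

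Adding CH and LIF to PD set Lbh apart from the rest. PCL against PD was higher for Fjx1 (0.53 ± 0.20), Rgs16 (0.50 ± 0.14), Tcf15 (0.45 ± 0.22), Sox13 (0.41 ± 0.17) and Angptl4 (0.36 ± 0.11), while Lbh was lower (-0.37 ± 0.09, and -0.64 ± 0.16 on its second probe). None reached 2-fold, as did 0.454% of 7714 genes, and 46.8% of the genes were lower by any amount. Set against the lowest level detected with PD, Tcf15 was 1.34-fold higher with PCL, which is no firm minimum. The 95% bead-level interval of the Tcf15 difference was 0.005 to 0.89, and without background correction the difference was 0.14. The median of all genes was 0.02. This comparison shares the PD array, on which the 6 were chosen to be low, so values above 0 were favoured by the choice, and the value of Lbh runs the other way. The combination departed from the sum of the 3 single differences by 2.34 ± 0.33 for Tcf15, 1.59 ± 0.29 for Fjx1 and 1.51 ± 0.29 for Sox13, by 0.71 ± 0.24 for Rgs16 and 0.36 ± 0.19 for Angptl4, and by -0.01 ± 0.18 for Lbh. The departure, PCL minus that sum, holds the untreated array 2 times. On that array Tcf15, Fjx1 and Sox13 stood 0.51, 0.51 and 0.54 above the higher of CH and LIF. The brighter probe of Lbh stood 0.15 above it, within the bead-level interval. For Rgs16 and Angptl4 the same difference was -0.17 and -0.16. Added to the untreated level, the sum for Tcf15 and for Sox13 lies below the lowest level detected with PCL (log2 4.81). A departure above 0 was thus favoured for these dim genes. The part of the untreated array and of this floor in the departures was not tested.

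**Figure D4:**
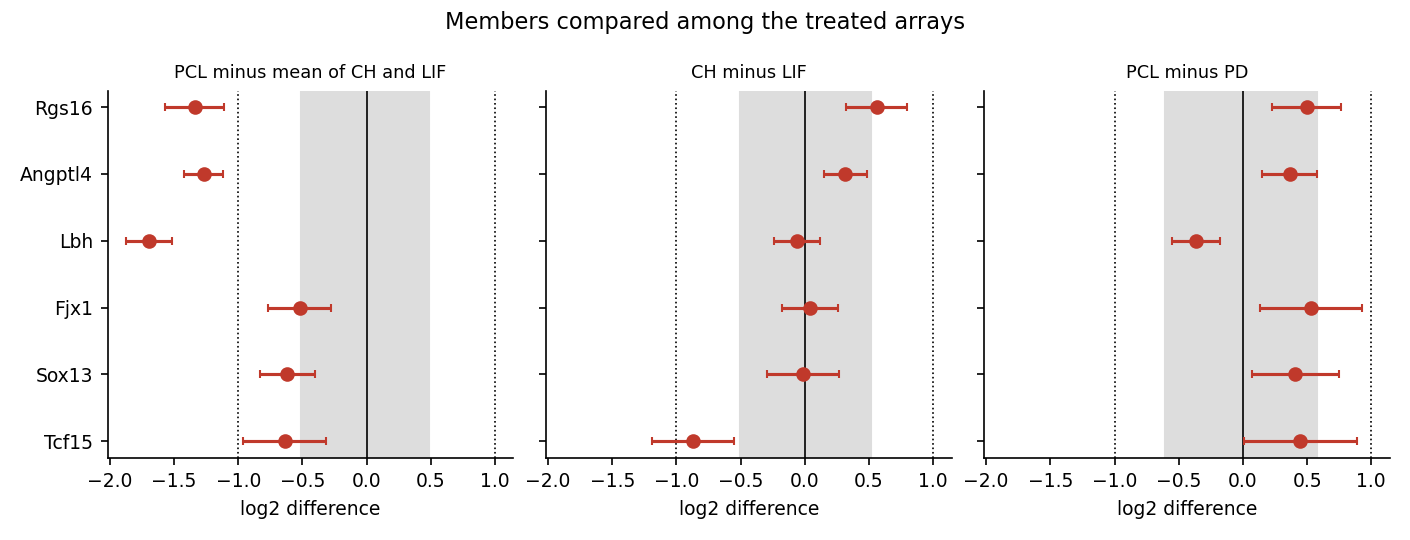
Log2 difference (horizontal axis) of the 6 genes (rows) between treated arrays, with 95% bead-level intervals, dotted lines at 2-fold and a grey band over the central 95% of all detected genes. All 6 are below 0 for PCL against the mean of CH and LIF, Tcf15 alone is at -0.87 for CH against LIF, and Lbh alone is below 0 for PCL against PD.

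Within the 6, the 5-array profiles formed close pairs. Each profile was centred on its own mean, and the Euclidean distance between profiles was smallest for Fjx1 and Sox13 (0.11) and next for Rgs16 and Angptl4 (0.29). The other pairs lay 0.61 to 1.31 apart, with Rgs16 and Tcf15 the farthest. Over the 5 arrays Pearson's r ranged from 0.73 to 1.00, as a description of genes that all had to be low on 1 of the same arrays.

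Among the 8347 other detected genes, the profile closest to Lbh was that of the ERK phosphatase Dusp6 (distance 0.19), followed by Plau (0.22) and the EGF receptor inhibitor Errfi1 (0.42). Dusp6, like Lbh, was lower with PCL than with PD (-0.53). The closest to Angptl4 were Ccl7 (0.36), the receptor tyrosine kinase Epha2 (0.37) and its relative Epha1 (0.39). Rgs16 was followed by Ccl7 (0.45), Epha2 (0.53) and Plau (0.57). Fjx1 and Sox13 shared their closest genes, the ubiquitin ligase gene Mkrn1 (0.30 and 0.29) and the kinase Sgk1 (0.35 and 0.31), with Ank (0.36) next for Fjx1 and Sema7a (0.33) for Sox13. Tcf15 had no gene nearer than Lor (0.72), Zbtb8a (0.74) and the glutamate receptor Grm6 (0.76).

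**Figure D5:**
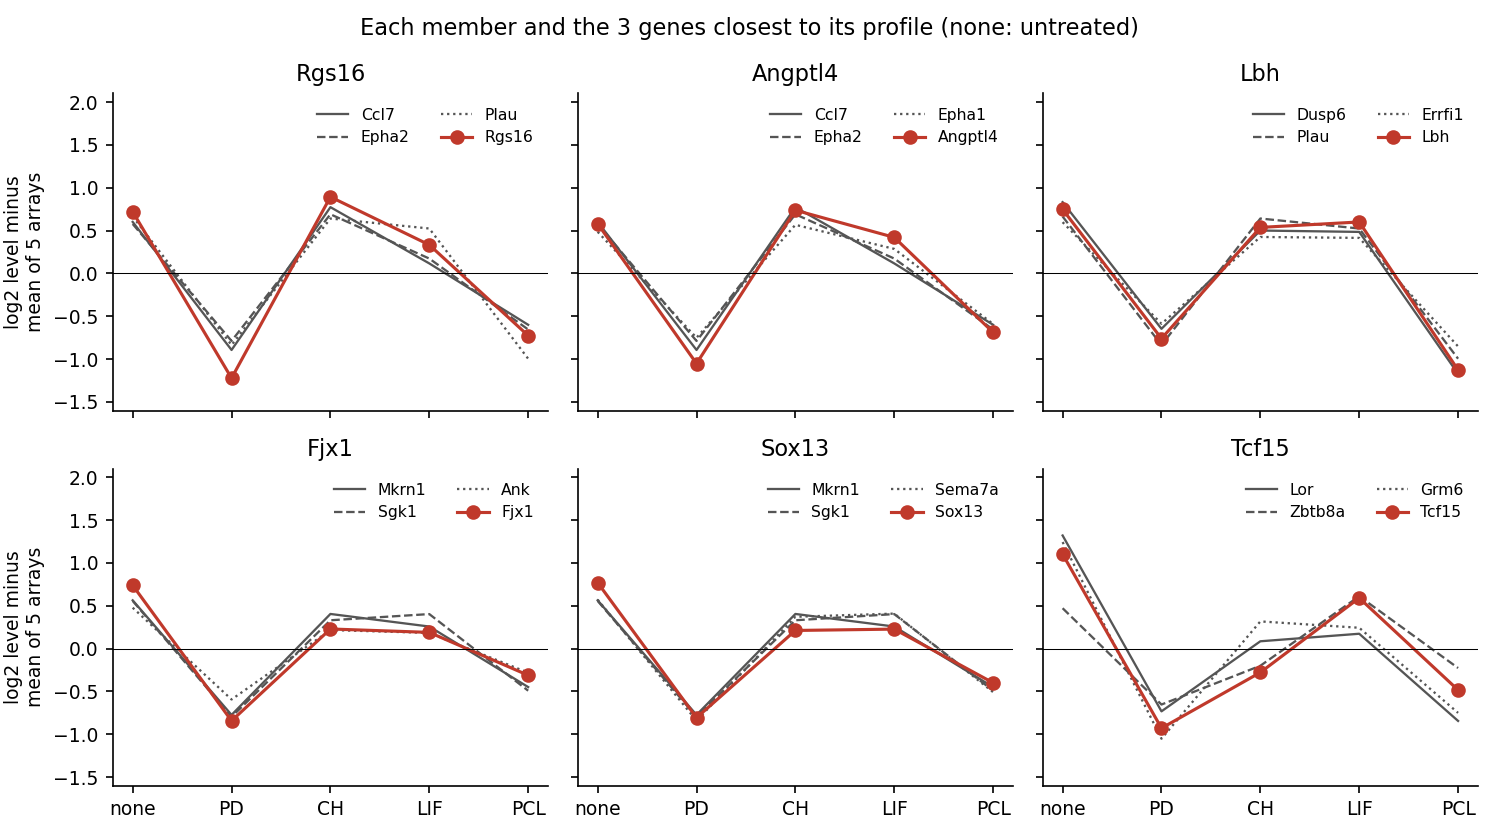
Log2 level minus the mean of the 5 arrays (vertical axis) on each array (horizontal axis) for each of the 6 genes in red and for its 3 closest genes in grey, with lines only joining points of 1 gene. The grey lines run near the red one for Lbh, down to a distance of 0.19 for Dusp6, and farthest from it for Tcf15.

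The ERK target list gives the setting in which these genes were low. Of its 16 members detected on the PD or untreated array 15 were lower with PD, as were 50.3% of all genes, and 5 at least 2-fold, with a median of -0.71 against -0.0026 over all genes. The largest differences were those of the immediate early factor Egr1 (-3.68 ± 0.13) and the phosphatases Dusp4 (-2.24 ± 0.09) and Dusp6 (-1.48 ± 0.06), followed by Epha2 (-1.36) and the feedback inhibitor Spry4 (-1.15). For PCL against the mean of CH and LIF 16 of 18 were lower and 5 at least 2-fold, against 48.0% and 0.279% of all genes, namely Egr1 (-2.58), Dusp6 (-1.66), Dusp4 (-1.53), Epha2 (-1.09) and the ETS factor Etv1 (-1.01), with a median of -0.44. Against untreated PCL gave at least 2-fold lower values for 6 of 16, namely Egr1 (-3.62), Dusp4 (-2.25), Dusp6 (-2.004), Epha2 (-1.23), Spry4 (-1.17) and Etv1 (-1.16), against 0.770% of all genes. For PCL against the mean of CH and LIF Lbh (-1.70) lay beside Dusp6, and Rgs16 (-1.34) and Angptl4 (-1.27) between Dusp4 and Epha2. With CH against untreated 9 of 15 list members were lower (50.4% of all genes) and 0 at least 2-fold, with LIF 12 of 18 (50.8%) and 1 (Egr1, -1.30), and for PCL against PD 7 of 15 were lower (46.8%) and 0 at least 2-fold.

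Relatives and pathway partners of the 6 genes were mostly undetected or less than 2-fold different with PD. In the counts of these lists with PD, the shares over all genes to set beside them are 50.3% lower and 0.660% at least 2-fold lower. Of 11 RGS genes of the R4 and RZ families only Rgs16 and Rgs17 were detected on all 5 arrays, and Rgs17 differed by 0.02 with PD. Rgs19 (-0.32) was detected on 1 array. The other SoxD genes, Sox5 and Sox6, were not detected on any array, while the SoxC genes Sox4 and Sox12 differed by -0.63 and -0.05. Of the dimer partners of Tcf15, the E proteins Tcf4 and Tcf12 both differed by -0.01, and of the Id proteins that block such dimers Id1 by 0.28 and Id3 by -0.42. Over the 6 detected genes of that list, which included the relative Twist1 (-0.60), 4 were lower and 0 at least 2-fold, and the median was -0.01.

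For the lipid setting of Angptl4, its target Lpl differed by 0.29 with PD and the lipase maturation factor Lmf1 by 0.12. Of 5 other PPAR target genes detected 2 were lower with PD (50.3% of all genes) and 0 at least 2-fold (0.660%). Pdk4, a kinase that restrains pyruvate oxidation, differed by -0.86 with PD and by -1.09 for PCL against the mean of CH and LIF. With PCL against untreated Pdk4 differed by -1.27 ± 0.18, as much as Angptl4. Plin2 differed by 0.19 with PD and by -0.68 for PCL against the mean of CH and LIF, and Fabp3 by 0.26 with PD. Of 9 other hypoxia targets 7 were lower with PD (50.3% of all genes) and 0 at least 2-fold (0.660%). Their median was -0.39, with Ndrg1 (-0.94), Hk2 (-0.51) and Vegfa (-0.51) lowest. Ndrg1 was 2-fold lower with PCL against untreated (-1.31). For Fjx1, 4 other genes of the Fat and Dachsous list were detected, 1 was lower, and Ccn2 (0.95), Ankrd1 (0.72) and Ccn1 (0.22) were higher with PD.

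Lbh is a target of Wnt signalling in mammary cells. Of the 8 other Wnt targets detected with CH or untreated 0 were lower with CH and 2 at least 2-fold higher, Sp5 (3.03 ± 0.08) and Axin2 (1.18 ± 0.08), with a median of 0.51, against 0.114% of all genes 2-fold higher, while Lbh differed by -0.21. With PD 5 of 6 other Wnt targets were lower (50.3% of all genes) and 0 at least 2-fold (0.660%). Their median was -0.47, with Tnfrsf19 (-0.93), Wnt8a (-0.63) and Lef1 (-0.60) lowest. With LIF 10 of 11 STAT3 targets were higher and 1, Socs3 (1.95 ± 0.07), at least 2-fold, against 0.0255% of all genes. With PD 8 of 11 were lower (50.3% of all genes), Socs2 (-0.94), Gbx2 (-0.93) and Klf5 (-0.92) the most. Gbx2 was 2-fold higher with CH (1.77). With PCL Gbx2 (3.23), Socs3 (1.48) and Stat3 (1.08), and of the Wnt targets Sp5 (3.40), Axin2 (1.52) and Cdx2 (1.08), were at least 2-fold higher than untreated, against 0.372% of all genes. All 6 genes were below untreated on the LIF array, as were 50.8% of all genes, apart from the second Lbh probe (0.09 ± 0.12). For Angptl4 and Lbh the intervals included 0, and this comparison shares the untreated array with the choice of genes.

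Of the feeder markers 7 of 10 were also lower with PD (50.3% of all genes), with a median of -0.28. They were led by Pdgfra at -1.17 ± 0.19, Col6a1 at -0.58 and Lum at -0.58. Pdgfra was not detected with PD, so its value there rests on an undetected signal. Acta2, Col1a1 and Thy1 were higher with PD than untreated. For PCL against the mean of CH and LIF 5 of 10 were lower (48.0% of all genes), with a median of 0.0006 and Pdgfra at -0.62. Of the epiblast markers 7 of 10 were lower with PD (median -0.40, 50.3% of all genes), led by Pou3f1 (-1.04) and Fgf5 (-0.88), while Nanog was higher (0.90). Pou3f1 was also at least 2-fold lower with CH (-1.41) and PCL (-1.81), and Fgf5 with PCL (-1.79). Their part in the differences of the 6 genes was not tested.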

How the data were processed

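Total RNA of 5 cultures was measured on 1 Illumina bead array each, with 400 ng of RNA amplified and in vitro transcription for 12 h, per the labels' protocols. Per the file headers, the scanner output deposited for each array gives an intensity signal, its bead standard error and a detection p-value for each of 25697 probes, exported with BeadStudio per the submitters' processing notes. The deposited processed intensity values have no method given in the sources used here and served as an alternative, floored at 16.

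Signals were corrected by normexp with controls inferred from the detection p-values (limma 3.58.1 in R 4.3.3, offset 16), quantile-normalized and put on the log2 scale. This compresses differences of dim probes. Where a gene had several probes, the one with the highest mean stood for it. Probe names came from the platform annotation (23978 probes with 1 symbol, 0 with several, 1719 unnamed). With 1 array per condition a difference was called at 2-fold with detection on at least 1 array compared, and the call was tested on simulated data. Those data held changes larger than 2-fold and bead-level error only. The test therefore checks the working of the call and says nothing of the spread between cultures. Intervals are 1.96 bead-level standard errors.

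The 6 genes, the 13 lists (158 genes, 140 with a named probe) and the motifs were chosen with earlier results of these data known. Named were the 6 genes, per list the 3 other detected genes with the largest PD difference and those 2-fold different from untreated, undetected or extreme markers, and the 3 closest profiles to each gene. Sox5, Sox6, Tcf4, Tcf12, Dnmt3b, Pou5f1 and the genes next to the 6 in rank were added after their values had been seen. Alternatives were the scaling, background, offset, processed values, probe choice, detection limit, fold and reference array. No genome was used beyond the promoter table.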

Additional observations from a re-analysis of the deposited data

How the results depend on the processing

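Among the alternatives the detection limit and the fold leave a difference as it is and could not turn a sign. The mean of probes changes only Lbh and could turn a sign for that gene alone. Lbh with LIF stayed just below 0 under it (-0.03). With these alternatives included, 332 of 337 single values of the 6 genes kept their sign, and the 5 that turned were under 2-fold. They were Fjx1 with CH (0.04) and Lbh (0.06), Sox13 (0.02) and Tcf15 (0.87) with LIF when the median of the 3 arrays without that agent was the reference, and Lbh with LIF on its second probe (0.09). Without background correction the median of the 6 genes was -1.10 for PD, -0.88 for PCL and -0.61 for PCL against the mean of CH and LIF, and 3 genes with PD, 2 with PCL and 0 with CH were at least 2-fold lower. An offset of 50 left 0 with CH and 4 with PCL, with Fjx1 and Sox13 both at -0.85. In the authors' values the median for PD was -1.94, and 1 gene (Tcf15) was 2-fold lower with CH than with LIF. With the median of the other arrays as reference, which include PD, the median was 0.012 for CH, with 0 genes 2-fold lower, and -0.012 for LIF. At 1.5-fold 5 genes were lower for PCL against the mean of CH and LIF and 1 for CH against LIF.

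Over all genes the number at least 2-fold different in the order PD, CH, LIF and PCL against untreated, PCL against the mean of CH and LIF, CH against LIF, and PCL against PD was 61, 15, 7, 89, 36, 17 and 35. It was 17, 5, 3, 26, 14, 7 and 13 without background correction, 29, 9, 3, 40, 17, 11 and 16 with an offset of 50, and 135, 46, 32, 166, 77, 60 and 89 in the authors' values. At 1.5-fold it was 407, 221, 128, 488, 219, 236 and 393, and scaling to a common 75th percentile gave 92 for PD, 37 for CH and 12 for LIF. A larger offset or no correction compresses dim probes by construction, and Tcf15, Sox13 and Fjx1 are the dimmest of the 6. No paired analysis was possible because each condition has 1 array, and leaving out a replicate was likewise not run. With 1 array per condition the spread between cultures is unknown.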
